A study of Rattus norvegicus with 32 samples.

Results

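The genes described here are 36 genes of glucose use: those for glucose uptake, glycolysis, lactate handling, glycogen and the pentose phosphate pathway. They were taken by gene name from the annotation of the array, on which 35 of the 36 have at least 1 probe and Pgd was not found under that name. Among 26583 gene names on the array, 13630 were tested at 3 h and 16448 at 6 h, including 31 of these genes at 3 h and 33 at 6 h. The genes left out for dim signal were Txnip and Pygl at both times, and Pfkfb2 and Slc16a3 at 3 h. The cells were C6, an established rat glioma line, grown to confluence in medium with fetal bovine serum. In the Ang II groups the cells received angiotensin II (Ang II) at 100 nM, alone (Ang II), after 30 min with 10 µM of the AT1 receptor antagonist Losartan (Ang II+Los), or after 30 min with 10 µM of the AT2 receptor antagonist PD123319 (Ang II+PD123319). Control cells received none of these agents, and every group was sampled at 3 h and at 6 h with 4 replicates. The work used 1 cell line, no group received an antagonist alone, and the labels do not say whether replicates came from separate cultures, so that p-values measure the spread between these samples, which may be technical.

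Glucose enters a cell through transporters such as Slc2a1, is held there by hexokinases and is split to pyruvate by the glycolytic enzymes, after which lactate dehydrogenase makes lactate that leaves through monocarboxylate carriers. The same sugar phosphate can be stored as glycogen or passed through the pentose phosphate pathway to ribose phosphate and NADPH. Glioma cells are known for high glucose uptake and lactate release. Gapdh, a glycolytic enzyme, is also widely used as a reference gene in quantitative PCR, and served as one in this study.

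The 32 single-dye arrays gave a spot signal well above background for 55.9% to 64.7% of spots at 3 h and for 64.2% to 79.8% at 6 h. All levels below are log2 signals after cyclic loess among the 16 arrays of a time, and a difference of 1 is a doubling. Each slide held 1 array of each of the 4 groups, always in the same position, so that position and treatment cannot be told apart. The replicate number is the slide, and groups were compared within slides. At 3 h the slides of replicates 1 and 2 were scanned apart from those of replicates 3 and 4. At 6 h the slide of replicate 4 was scanned apart from the others. The glial and glioma markers S100b, Vim, Nes, Cspg4, Pdgfra, Cnp, Sox2 and Sox9 were well above background on all 16 arrays of each time, while Slc1a3, Fabp7 and Olig2 were on none and Gfap was on 0 arrays at 3 h and 2 at 6 h. Among 6 microglia and leukocyte markers, 4 were well above background on all 16 arrays at 3 h and 5 at 6 h, and Ptprc was on none. Of 7 neuron markers 2 were at 3 h and 3 at 6 h, and of 5 endothelial markers 1 and 2. Markers of every cell type listed were thus detected in part. None of the probes for the 35 genes was saturated on any array.

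Before any treatment was compared, the slides of replicate 1 stood apart in the signal of Txnip. Txnip, an arrestin-domain protein that restrains glucose uptake and whose transcription follows the supply of glucose, has 1 probe at chr2:191360631-191360690 of the rn4 build. At 3 h its level on the 4 arrays of replicate 1 was 5.71 in Control, 6.11 in Ang II, 6.29 in Ang II+Los and 6.24 in Ang II+PD123319, all well above background. On the 12 other arrays of that time the level lay between 0.53 and 1.13 and was never well above background. At 6 h the replicate 1 arrays gave 5.18, 5.03, 4.73 and 4.26 in the same order of groups, and the 12 others gave 0.66 to 1.88, again never well above background. Against the mean of the lowest detectable signals of those other arrays, the mean of Txnip on replicate 1 was at least 8.63-fold higher at 3 h. At 6 h it was at least 3.66-fold higher. These are bounds from means of log2 values. On each dim array the bound is the higher of the probe's own signal and the lowest signal called well above background. Single arrays came closer, with the lowest replicate 1 level at 5.71 against a highest bound of 3.51 at 3 h, and 4.26 against 3.28 at 6 h. Of 30367 probes, 12 were well above background on all 8 arrays of replicate 1 and on none of the 24 others, and no probe had that pattern for replicate 2, 3 or 4. Besides Txnip they included Angptl4, an inhibitor of lipoprotein lipase, and Crabp1, a retinoic acid binding protein, both singled out after their values were seen.

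**Figure D1:**
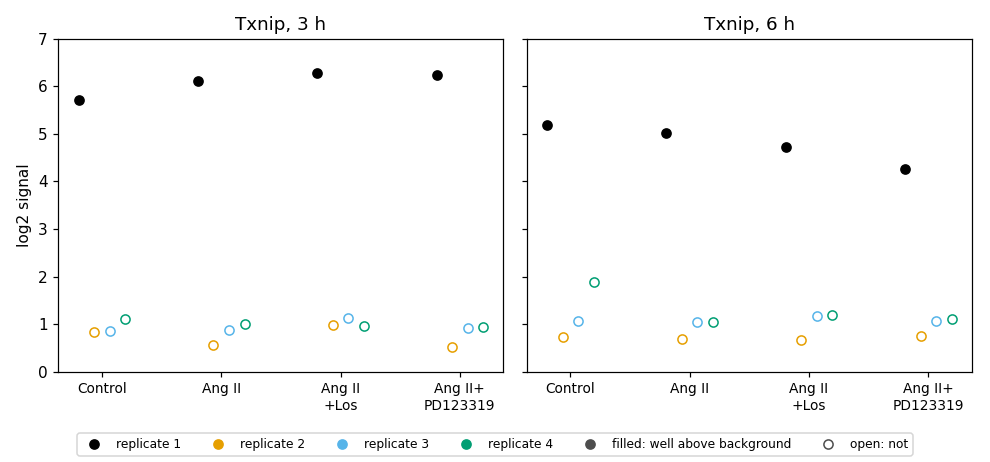
Txnip log2 signal (vertical axis) on each of the 32 arrays by group (horizontal axis), at 3 h on the left and 6 h on the right, coloured by replicate number; filled points are well above background. All 8 replicate 1 arrays lie between 4.26 and 6.29 and all 24 others between 0.53 and 1.88.

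Several enzymes and carriers differed in the opposite sense on the same slides. Slc2a1, the main basal glucose transporter (probe at chr5:139718779-139718838, rn4), deviated from the mean of the 4 slides by -1.63 on replicate 1 at 3 h and by -1.16 at 6 h. In Control cells at 3 h it read 8.71 on replicate 1 against 10.92, 11.33 and 10.84 on replicates 2 to 4, and at 6 h it read 8.70 against 10.95, 9.71 and 10.55. Thus the level on replicate 1 was the lowest of the 4 in both Control groups. Eno2, the neuronal form of enolase, deviated by -1.28 at 3 h and -0.88 at 6 h. Aldoc, the brain form of aldolase, deviated by -0.75 and -1.24, and Gys1, the muscle form of glycogen synthase, by -0.63 and -0.82. These 4 genes, of 31 tested at both times, were more than 0.5 below the slide mean on replicate 1 at both times, and none was more than 0.5 above it at both. Over all genes tested at both times the shares were 4.45% below and 2.84% above. Replicate 3 deviated as widely as replicate 1 at 3 h, with 23.0% and 23.2% of all genes more than 0.5 from the slide mean. On replicate 3 at 3 h Slc2a1 stood at 0.97, Eno2 at 1.09, Aldoc at -0.55 and Gys1 at 0.13, which also moves the mean. At 6 h the shares were 6.65% for replicate 3 and 15.0% for replicate 1.

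Not every deviation recurred. Hk2, the inducible hexokinase, was at -1.20 on replicate 1 at 3 h and at -0.21 at 6 h. Across the 31 genes the deviations of replicate 1 at 3 h and at 6 h had a Pearson correlation of 0.71, and across 13617 genes tested at both times it was also 0.71. The same correlation over the 31 genes was 0.13 for replicate 2, -0.66 for replicate 3 and 0.29 for replicate 4. These are descriptions across genes, which are not independent replicates, and the labels do not say what the same replicate number shares between times. At 3 h, 27 of 31 genes had a range over the 4 slide means larger than their largest treatment difference, and at 6 h 32 of 33 did. The same count was not made over all genes, so it is not a trait of this list. The measures also differ, since a range over all slides is set against the largest single comparison, which favours the slides. The median range over slides was 0.61 at 3 h and 0.54 at 6 h, against medians of 0.30 and 0.15 for the largest treatment difference of a gene. The smallest range over slides was that of Pgam1, a phosphoglycerate mutase, at 3 h (0.06), and of Eno1, the widespread enolase, at 6 h (0.11), whereas Slc2a1 spanned 2.61 at 3 h and 1.83 at 6 h. The Pgam1 probe is placed on chr10 of rn4, and the Pgam1 promoter on chr1 of the later build GRCr8. Eno1 was averaged over probes placed on chr5 and on chr10 (chr10:53300221-53300280). What these probes measure was not tested.

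**Figure D2:**
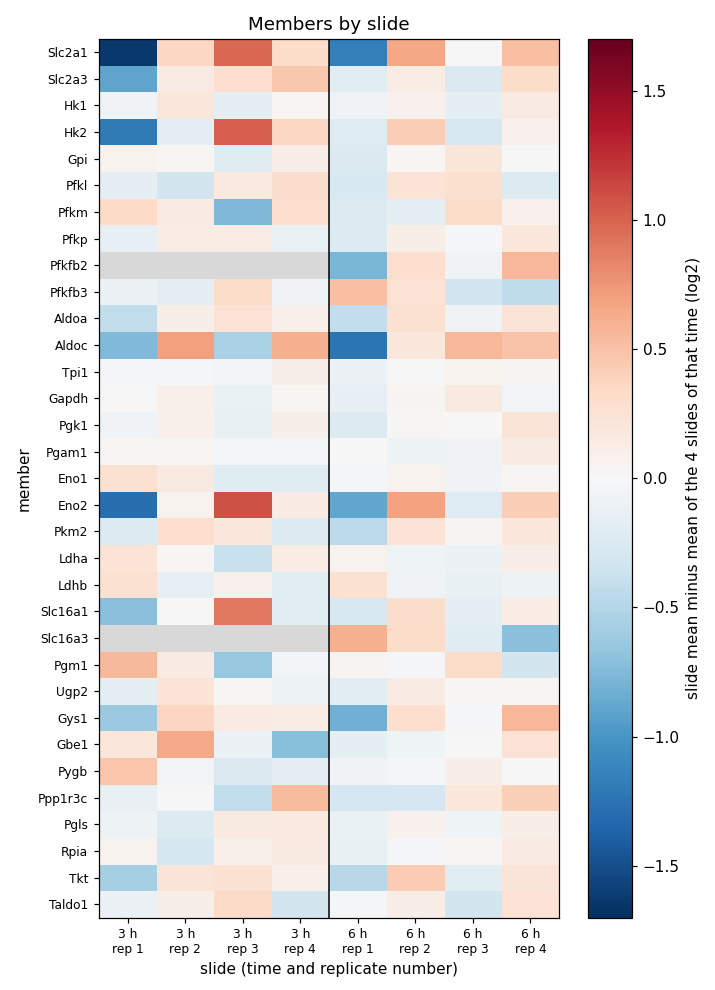
Mean of each slide minus the mean of the 4 slides of its time (colour, log2) for each gene tested (rows) and each slide (columns, time and replicate number); grey marks genes not tested at that time. Slc2a1, Eno2, Aldoc and Gys1 are low on replicate 1 at both times, while Tpi1 and Pgam1 are pale on every slide.

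The promoters of these 4 genes are shown because they were low on the same slides. Each is the 300 bases from 250 before to 50 after the gene start in RefSeq, build GRCr8, printed 5′ to 3′ on the strand of the gene. Capitals mark ACGTG or GCGTG, the core of the hypoxia response element, and CACGTG, an E-box that contains ACGTG, on either strand.
Slc2a1, chr5:138002272-138002571, plus strand: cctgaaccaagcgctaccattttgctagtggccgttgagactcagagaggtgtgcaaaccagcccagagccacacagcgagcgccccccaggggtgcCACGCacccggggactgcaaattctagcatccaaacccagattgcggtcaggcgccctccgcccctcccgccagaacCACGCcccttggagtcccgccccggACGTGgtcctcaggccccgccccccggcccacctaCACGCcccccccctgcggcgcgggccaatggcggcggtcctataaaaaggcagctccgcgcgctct
Aldoc, chr10:63715294-63715593, plus strand: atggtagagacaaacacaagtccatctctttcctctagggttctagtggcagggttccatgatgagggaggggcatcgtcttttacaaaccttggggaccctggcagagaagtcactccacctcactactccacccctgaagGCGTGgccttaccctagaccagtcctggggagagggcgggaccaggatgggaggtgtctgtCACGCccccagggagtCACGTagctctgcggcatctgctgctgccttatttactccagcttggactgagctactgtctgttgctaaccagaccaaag
Eno2, chr4:159267171-159267470, minus strand: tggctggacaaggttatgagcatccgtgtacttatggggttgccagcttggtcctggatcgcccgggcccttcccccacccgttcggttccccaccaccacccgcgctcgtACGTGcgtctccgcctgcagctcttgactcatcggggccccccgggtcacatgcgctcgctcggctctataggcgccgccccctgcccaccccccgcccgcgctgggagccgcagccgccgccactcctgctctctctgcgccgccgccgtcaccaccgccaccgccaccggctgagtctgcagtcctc
Gys1, chr1:105051666-105051965, plus strand: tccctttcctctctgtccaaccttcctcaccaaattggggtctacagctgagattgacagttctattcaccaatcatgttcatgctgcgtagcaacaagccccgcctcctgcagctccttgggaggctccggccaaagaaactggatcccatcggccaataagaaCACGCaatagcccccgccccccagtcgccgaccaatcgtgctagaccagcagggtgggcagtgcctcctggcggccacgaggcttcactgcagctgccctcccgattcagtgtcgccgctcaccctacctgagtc
Slc2a1 held 1 ACGTG and 3 GCGTG, Aldoc 1 and 2, Eno2 1 and 0, and Gys1 0 and 1, and CACGTG was in none of the 4 windows. Promoters were matched for 32 of the 36 genes, all but Slc2a3, Txnip, Pgk1 and Pgls. ACGTG was in 18 of the 32 (56.2%) and in 19.3% of 33469 rat promoters of the same length. GCGTG was in 15 (46.9%) against 29.7%, and CACGTG in 4 (12.5%) against 6.42%. The median share of G and C was 62.0% in the 32 promoters and 51.7% in all, and its part in these shares was not tested. A match of letters is not a binding site.

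Ang II x Control at 3 h asked which genes differed after Ang II with both receptors free to act. In glucose use, Ppp1r3c, Ldha and Taldo1 were higher and Slc2a1 was lower at an unadjusted p under 0.05 in limma. None of these 4 calls held under the methods' paired t-test, by which 2 other genes of the list passed, Aldoc (0.20) and Tkt, a transketolase (-0.16). No call passed adjustment over all genes. That is 3 of 31 genes higher and 1 lower, beside 5.31% of all genes tested higher and 7.39% lower at the same limit. The shares are small counts near the background. The median difference of the 31 genes was 0.11 and 20 of them lay above 0. Over all 13630 genes the median was 0.00 and 50.3% lay above 0.

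Ppp1r3c, a subunit that brings protein phosphatase 1 to glycogen and favours its synthesis, had the widest difference. It read 6.64, 4.58, 6.74 and 7.50 in Control and 7.30, 8.27, 6.86 and 8.14 in Ang II (replicates 1 to 4). Replicate 2 of Control was lower than every other array of the gene at 3 h, and the groups overlapped. The difference was 1.28 ± 0.51 (SE, n = 4 pairs), a fold of 2.43, with limma's unadjusted p = 0.0279 and adjusted p = 0.365. Its 4 pairs were 0.66, 3.69, 0.13 and 0.64. Without replicate 2 the difference was 0.48 and still passed the limit, and without replicate 1 it was 1.49 and did not.

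At 6 h Ppp1r3c read 7.21, 6.75, 7.26 and 7.41 in Control and 6.94, 6.82, 7.52 and 7.56 in Ang II, and the groups overlapped. The difference was 0.05 ± 0.13, with an adjusted p = 0.854 in limma. The antagonist groups gave 7.75, 8.85, 7.03 and 7.96 in Ang II+Los and 7.37, 7.86, 7.26 and 8.07 in Ang II+PD123319 at 3 h, so that all 12 arrays with Ang II lay between 6.86 and 8.85.

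Slc2a1 read 8.69, 10.39, 10.97 and 10.28 in Ang II at 3 h, against the Control values given above. All 4 pairs were lower, by -0.02, -0.53, -0.36 and -0.56, although the groups overlapped because the slides differed far more than the treatments. The difference was -0.37 ± 0.11, a fold of 0.773, with an unadjusted p = 0.00603 and an adjusted p = 0.322 in limma. Without replicate 1, the slide on which Slc2a1 was lowest, it was -0.47, and without replicate 4 it was -0.31 and no longer passed. At 6 h the difference was -0.20, and did not pass the limit.

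Taldo1, the transaldolase of the non-oxidative pentose phosphate branch, read 12.95, 13.24, 13.72 and 12.87 in Control and 13.13, 14.05, 13.79 and 13.39 in Ang II. All 4 pairs were higher and the groups overlapped. The difference was 0.39 ± 0.17 (fold 1.31, unadjusted p = 0.0391 and adjusted p = 0.38 in limma), and it no longer passed without replicate 2 (0.26) or without replicate 4 (0.35). Ldha, which makes lactate from pyruvate, read 15.65, 15.54 and 15.86 in Control and 16.44, 15.61 and 16.27 in Ang II on replicates 2 to 4, since its replicate 1 spot in Ang II carried an outlier flag and was dropped. The difference was 0.43 ± 0.17, with an adjusted p = 0.37 in limma, and leaving out replicate 2 (0.24) or replicate 4 (0.44) lost the call. Slc2a3, the high-affinity glucose transporter typical of neurons, stood at 0.54 and did not pass. Of the glycogen enzymes Gbe1 stood at 0.35, Pygb at 0.32 and Gys1 at 0.28, and none of the 3 passed.

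**Figure D3:**
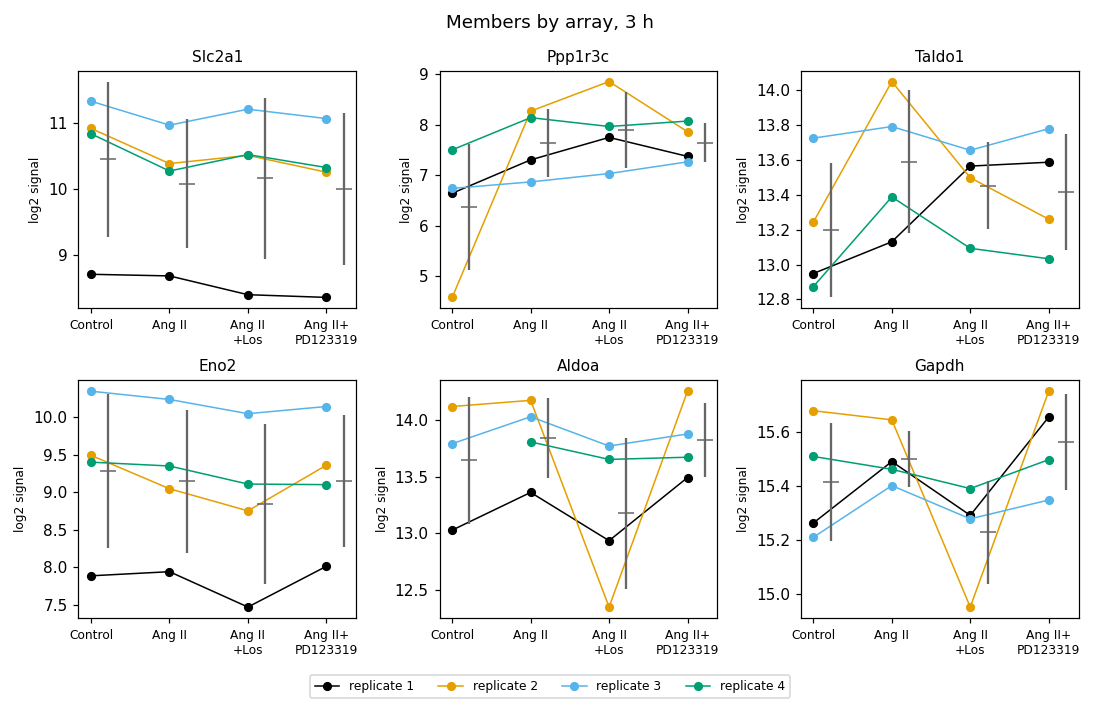
Log2 signal at 3 h (vertical axes, which do not start at 0) of the 5 genes named by rule at that time and of Gapdh in the 4 groups (horizontal axes); coloured points joined by lines are the arrays of 1 slide, and grey marks with bars are group means ± SD. Slc2a1 and Eno2 on replicate 1 lie below the other slides in every group, and replicate 2 carries the largest steps of Ppp1r3c, Aldoa and Gapdh.

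Ang II x Control at 6 h gave more calls, among these genes as among all genes. Pfkl, Gbe1, Pgm1, Gpi and Pygb were higher, and Ugp2, Rpia and Slc16a3 were lower. That is 5 of 33 higher beside 10.6% of all genes, and 3 lower beside 10.9%. The median of the 33 genes was 0.09 and 22 lay above 0. Over 16448 genes the median was -0.01 and 48.7% lay above 0. No gene of the table had an adjusted p under 0.05, the lowest of all being 0.0573. By the methods' paired t-test 5 of the 8 calls held (Pfkl, Gbe1, Pgm1, Rpia and Slc16a3), and those for Gpi, Pygb and Ugp2 were lost.

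Pfkl, the liver form of phosphofructokinase, which catalyses a committed step of glycolysis, had the lowest p of the 33. It read 8.95, 9.66, 9.75 and 9.16 in Control and 9.49, 10.01, 10.01 and 9.63 in Ang II. Every pair was higher in Ang II (0.54, 0.35, 0.27 and 0.48), while the groups overlapped between slides. The difference was 0.41 ± 0.08, a fold of 1.33, with an unadjusted p = 0.000413 and an adjusted p = 0.0677 in limma. Its 2 probes, at chr20:11032281-11032340 and chr20:11032161-11032220 of rn4, gave 0.37 and 0.44. Leaving out any one replicate gave 0.37 to 0.46. With the antagonists Pfkl read 9.60, 10.06, 9.97 and 9.36 in Ang II+Los and 9.49 to 9.94 in Ang II+PD123319, and differed from Ang II by -0.04 and -0.11.

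The glycogen group held 4 of the 8 calls at 6 h, from 6 genes tested, with 3 higher beside the 10.6% of all genes and 1 lower beside the 10.9%. Of the 4, only Gbe1 and Pgm1 also passed the methods' paired t-test. Gbe1, the branching enzyme (probe at chr11:8949657-8949716, rn4), read 6.73, 6.82, 6.96 and 7.24 in Control and 7.20, 7.21, 7.28 and 7.52 in Ang II. Ang II was higher on each slide, and the highest Control array exceeded the 2 lowest Ang II arrays. The difference was 0.37 ± 0.08, a fold of 1.29, with an unadjusted p = 0.000703 and an adjusted p = 0.0742 in limma, and 0.33 to 0.40 on leaving out any one replicate.

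Pgm1, phosphoglucomutase, which joins glycogen to glycolysis, read 9.43, 9.36, 9.93 and 9.19 in Control and 9.68, 9.76, 10.05 and 9.56 in Ang II. Its difference was 0.28 ± 0.08 with an adjusted p = 0.119 in limma. Pygb, the brain glycogen phosphorylase that releases glucose phosphate, stood at 0.27 ± 0.10 (adjusted p = 0.156 in limma), and was higher on 3 of 4 slides. Ugp2, which makes the UDP-glucose that glycogen synthase uses, went the other way. It read 11.27, 11.68, 11.31 and 11.67 in Control and 11.03, 11.36, 11.27 and 11.14 in Ang II. Each pair was lower and the groups overlapped. Its difference was -0.28 ± 0.08 with an adjusted p = 0.115 in limma.

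Gpi, the isomerase above phosphofructokinase, was higher on 3 of 4 slides, with a difference of 0.28 ± 0.09 and an adjusted p = 0.128 in limma. Rpia, which makes ribose phosphate in the pentose phosphate pathway, read 9.72, 9.99, 9.89 and 10.16 in Control and 9.60, 9.71, 9.80 and 9.88 in Ang II. All 4 pairs were lower by a small step, -0.20 ± 0.06, with an adjusted p = 0.138 in limma. Slc16a3, a lactate exporter, was dim and read 5.11, 4.92, 4.56 and 4.01 in Control and 4.98, 4.74, 4.02 and 3.60 in Ang II. Its difference was -0.31 ± 0.14 (adjusted p = 0.219 in limma), and with the normexp background it was 0.01, so that no direction can be given. Without replicate 2 the calls for Gpi, Pgm1, Pygb, Rpia and Slc16a3 were lost, without replicate 4 those for Gpi, Pygb, Rpia and Slc16a3, without replicate 1 that for Pygb and without replicate 3 that for Slc16a3. The lactate dehydrogenases and the other carrier, Slc16a1, lay between -0.06 and 0.09 and did not pass.

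**Figure D4:**
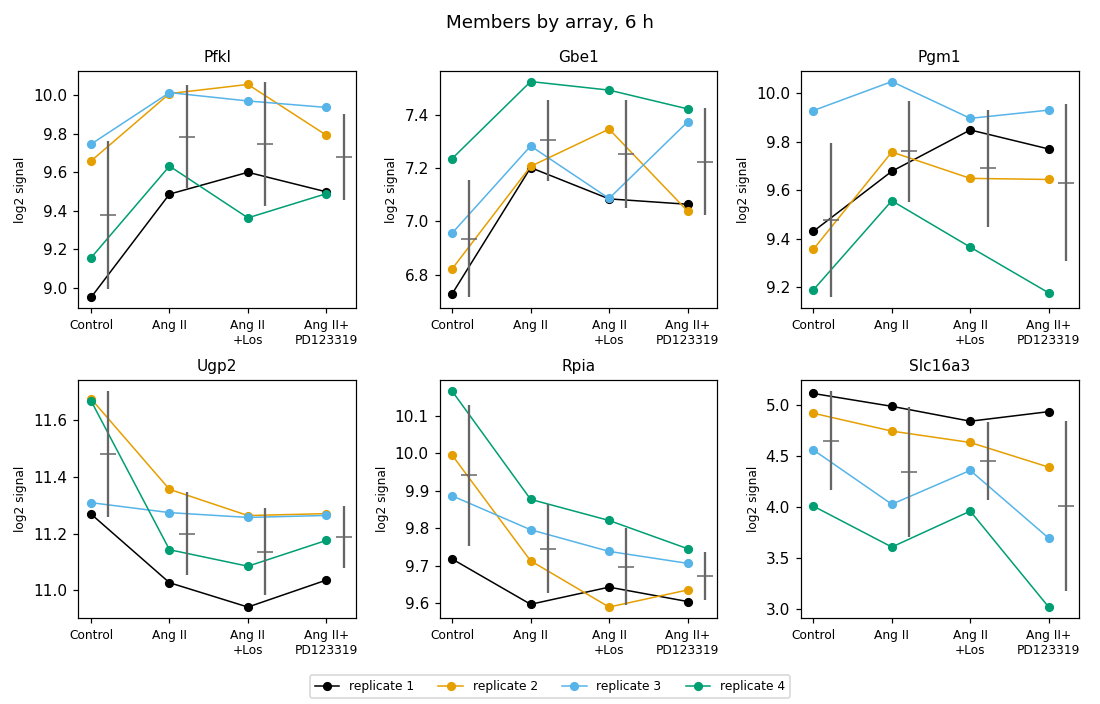
Log2 signal at 6 h (vertical axes, which do not start at 0) of the 6 genes named by rule in Ang II x Control, in the 4 groups (horizontal axes); coloured points joined by lines are the arrays of 1 slide, and grey marks with bars are group means ± SD. On every slide Pfkl, Gbe1 and Pgm1 step up and Ugp2, Rpia and Slc16a3 step down from Control to Ang II.

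**Figure D5:**
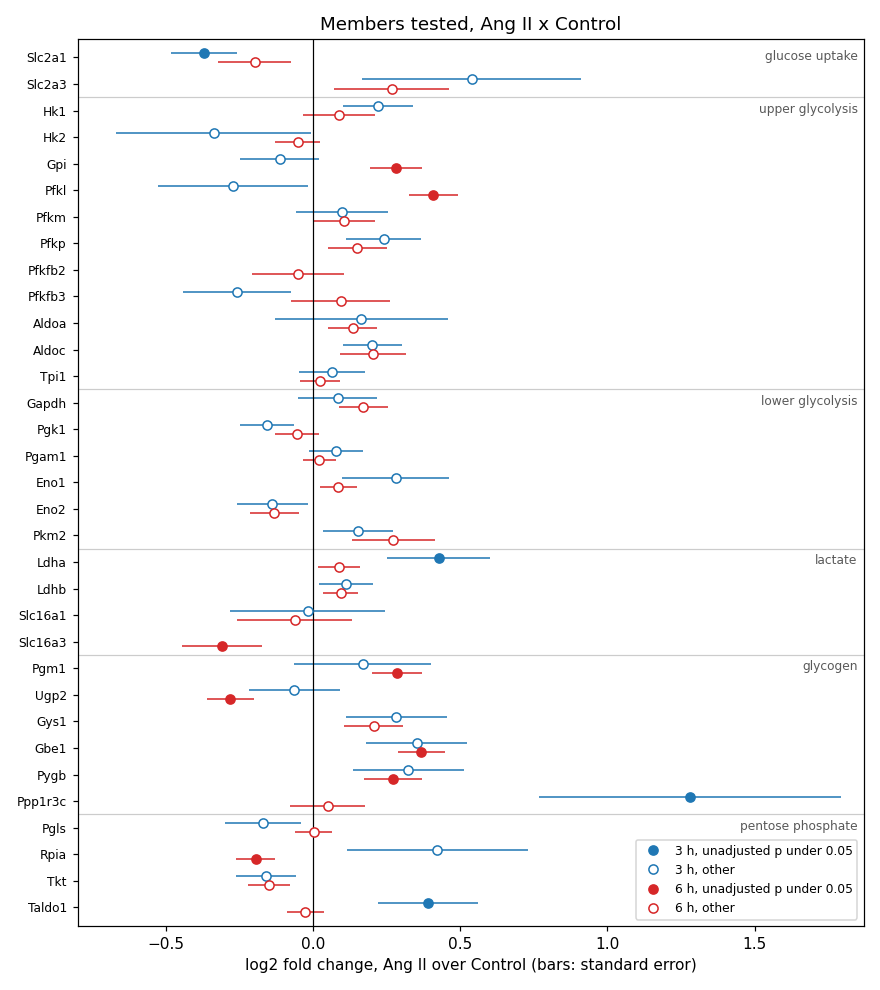
Log2 fold change of Ang II over Control (horizontal axis, bars are standard errors) for each gene tested (vertical axis, by role), at 3 h in blue and 6 h in red; filled points have an unadjusted p under 0.05. Ppp1r3c at 3 h lies farthest from 0, at 1.28, and Pfkl and Gbe1 are the highest at 6 h, at 0.41 and 0.37.

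Whether the response to Ang II differed between the times was tested as an interaction. The slides, scans and extraction protocol differ between the times, which cannot be told apart from time itself. Of 31 genes, 4 had an unadjusted p under 0.05, beside 7.17% of 13617 genes. Pfkl went from -0.27 at 3 h to 0.41 at 6 h, a difference of 0.68 ± 0.28 with an adjusted p = 0.669 in limma. Gpi went from -0.11 to 0.28, a difference of 0.39 ± 0.16 with the same adjusted p. Taldo1 and Ppp1r3c went the other way, by -0.42 ± 0.18 and -1.23 ± 0.56, with adjusted p of 0.677 for both in limma. Without replicate 2 at both times 0 of the 31 genes passed the limit, and without replicate 1 or without replicate 4 only 1 did. By sign alone, 25 of the 31 genes lay on the same side of 0 at both times. The share over all genes was not counted, and array position goes with treatment at both times. The number is therefore not read as a trait of these genes.

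Blocking the AT1 receptor, in Ang II+Los x Ang II, asked what differed when the cells also met Losartan. This comparison shares the Ang II arrays with Ang II x Control, so that the 2 comparisons are not independent. At 3 h none of the 31 genes was higher and 4 were lower (Pgm1, Ldha, Eno2 and Aldoa), beside 4.94% of all genes higher and 6.1% lower. The median of the 31 was -0.14, beside 0.003 over all genes. By the methods' paired t-test the call for Eno2 held and those for Aldoa, Ldha and Pgm1 were lost. Aldoa, the muscle form of aldolase, read 13.36, 14.17, 14.03 and 13.81 in Ang II and 12.93, 12.35, 13.77 and 13.65 in Ang II+Los. Each pair was lower, and the pairs were -0.43, -1.83, -0.26 and -0.15. The Control spot of replicate 4 was dropped from this fit. The difference was -0.67 ± 0.28 with an adjusted p = 0.425 in limma. Without replicate 2 it was -0.28, and leaving out replicate 1 or replicate 3 lost the call as well.

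Eno2 read 7.94, 9.05, 10.24 and 9.35 in Ang II and 7.47, 8.75, 10.05 and 9.11 in Ang II+Los. Its steps were even across slides, -0.47, -0.29, -0.19 and -0.24, in contrast with a spread of over 2 units between slides. The difference was -0.30 ± 0.12 with an adjusted p = 0.425 in limma. Its 2 probes gave -0.13 and -0.47, and its call was lost on leaving out replicate 1, replicate 3 or replicate 4. Pgm1 stood at -0.60 ± 0.23 and Ldha at -0.44 ± 0.17, and both were no longer past the limit without replicate 2, at -0.30 and -0.25. The call for Pgm1 was also lost on leaving out replicate 1, and that for Ldha on leaving out replicate 4. By scan, the mean pair of Pgm1 was -1.06 on replicates 1 and 2 and -0.13 on replicates 3 and 4. In the same order it was -1.13 and -0.21 for Aldoa and -0.38 and -0.21 for Eno2. The part of the scan was not tested. Across the 31 genes, the count was 1 without replicate 1, 1 without replicate 2 and 2 without replicate 4. The median was -0.02 without replicate 2.

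With Losartan at 6 h no gene of the 33 passed in either direction, beside 0.815% of all genes higher and 1.18% lower. By the methods' paired t-test 2 of the 33 passed, Gys1 (-0.18) and Ugp2 (-0.06), and none of 16448 genes passed adjustment in either test. The differences lay between -0.18 and 0.13, with a median of -0.05 beside -0.0009 over all genes. Of the 33, 5 were above 0, beside 49.5% of all genes. The lowest was Gys1 at -0.18 and the highest Pfkfb3, a kinase that makes the phosphofructokinase activator, at 0.13.

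Ang II+PD123319 x Ang II asked the same for the AT2 receptor, and also shares the Ang II arrays. At 3 h no gene of the 31 passed, beside 2.11% of all genes higher and 0.902% lower, and the methods' paired t-test gave 0 as well. Differences lay between -0.39 for Ldha and 0.25 for Pfkl, with a median of -0.03 beside -0.02 over all genes. Without replicate 1, 2 genes passed, both lower. At 6 h Slc2a3 was higher and Slc16a3 lower, 1 each of 33, beside 3.88% and 2.49% of all genes. Neither call held under the methods' paired t-test, by which Aldoa (-0.12) and Eno2 (-0.16) passed instead.

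Slc2a3 read 5.22, 5.79, 5.69 and 5.76 in Ang II and 5.96, 6.35, 5.58 and 6.74 in Ang II+PD123319 at 6 h. It was higher on 3 of 4 slides, with replicate 3 at -0.11. The difference was 0.54 ± 0.20, a fold of 1.46, with an adjusted p = 0.684 in limma. It was 0.76 without replicate 3, and its call was lost on leaving out replicate 1, replicate 2 or replicate 4. Slc16a3 read 4.93, 4.39, 3.69 and 3.01 in Ang II+PD123319, where replicate 4 was not well above background. Its difference was -0.33 ± 0.14 with an adjusted p = 0.739 in limma. Under other settings this value ranged from -0.42 to -0.043, and the call was lost with the normexp background, with 75th percentile scaling, relative to Gapdh, without the slide as a block, and on leaving out replicate 2, replicate 3 or replicate 4.

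Gapdh was examined as a reference gene for quantitative PCR. It has 3 probes on the array, of which the 2 shown here lie across 169 and 148 bases of chr4 in rn4, more than their own 60 bases, so that each is split on the genome. They are shown because the probes of this gene differ among themselves at 3 h.
Gapdh probe at chr4:161282433-161282601, minus strand: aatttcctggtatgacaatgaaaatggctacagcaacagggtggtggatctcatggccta
Gapdh probe at chr4:161282760-161282907, minus strand: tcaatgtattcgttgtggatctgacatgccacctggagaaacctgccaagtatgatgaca
The third probe lies at chr4:161282310-161282369. At 3 h Gapdh read 15.26, 15.68, 15.21 and 15.51 in Control, 15.49, 15.65, 15.40 and 15.46 in Ang II, 15.29, 14.95, 15.28 and 15.39 in Ang II+Los, and 15.66, 15.75, 15.35 and 15.50 in Ang II+PD123319. At 6 h it read 14.91, 15.38, 15.58 and 15.25 in Control, 15.32, 15.51, 15.57 and 15.41 in Ang II, 15.43, 15.43, 15.50 and 15.35 in Ang II+Los, and 15.34, 15.42, 15.54 and 15.38 in Ang II+PD123319. Gapdh varied less between slides than Slc2a1, and its groups overlapped except Ang II+Los against Ang II at 3 h, where all 4 Ang II+Los arrays were lower. The gap there was narrow, with the highest Ang II+Los array at 15.39 and the lowest Ang II array at 15.40. Each of the 3 probes alone overlapped between these groups, and the share of all genes without overlap was not counted.

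Ang II x Control gave 0.08 ± 0.13 for Gapdh at 3 h and 0.17 ± 0.08 at 6 h, with adjusted p of 0.804 and 0.258 in limma. At 6 h it was 0.23 without replicate 3 and then passed the unadjusted limit. Under 75th percentile scaling the 3 h value turned to -0.03. Ang II+Los x Ang II gave -0.27 ± 0.13 at 3 h (adjusted p = 0.425 in limma), with pairs of -0.20, -0.69, -0.12 and -0.07. The probes gave -0.41 and -0.30 for the 2 printed above, in that order, and -0.10 for the third. In Ang II x Control at 3 h the same probes gave 0.05, 0.39 and -0.19. At 6 h they gave 0.19, 0.18 and 0.14, closer together. The other 3 comparisons of Gapdh lay between -0.03 and 0.06.

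Expressing every gene relative to Gapdh on the same array moved the results. In Ang II x Control at 6 h the median of the remaining 32 genes turned from 0.09 to -0.08, with 1 gene higher and 6 lower. Of the earlier calls, Pfkl stayed higher (0.24) and Ugp2, Rpia and Slc16a3 stayed lower. The calls for Gbe1 (0.20), Pgm1 (0.11), Gpi (0.11) and Pygb (0.10) were lost. With Losartan at 3 h the median turned from -0.14 to 0.15, with 3 higher and none lower. Over all genes the same step moved the medians to -0.18 and 0.28. The step takes the difference of Gapdh itself from every gene alike. Whether the list lay above or below all genes was thus fixed in advance and is not a result.

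Of 100 further genes of these pathways, 89 are on the array, 49 were tested at 3 h and 61 at 6 h. In Ang II x Control 4 were higher and 3 lower at 3 h, beside 5.31% and 7.39% of all genes, and 8 were higher and 9 lower at 6 h, beside 10.6% and 10.9%. Under other settings the number past the limit ranged from 0 to 10 at 3 h and from 4 to 20 at 6 h. The genes of pyruvate entry into mitochondria and its oxidation, which are the pyruvate dehydrogenase subunits, their kinases and phosphatases and the mitochondrial pyruvate carriers, had 2 of 10 higher and none lower at 3 h and 4 of 11 higher and 1 lower at 6 h. The higher genes were Pdhb and the kinase Pdk1 (0.52) at 3 h. At 6 h they were Pdhb, Dlat, Pdk1 (0.33) and a further kinase, Pdk2 (0.30), so that subunits and kinases were both among them. The lower gene was Brp44l, a mitochondrial pyruvate carrier, at -0.16. Brp44l and, at 6 h, the kinases were named after their values were seen. Pdhb, a subunit of the first enzyme of the complex, stood at 0.64 ± 0.20 at 3 h and 0.33 ± 0.08 at 6 h. It was higher on all 4 slides each time, with adjusted p of 0.322 and 0.0972 in limma. Its pairs at 3 h were 0.32, 1.60, 0.37 and 0.26, and without replicate 2 the difference was 0.32. Dlat, the acetyltransferase of the complex, stood at 0.27 ± 0.05 at 6 h (adjusted p = 0.0677 in limma). Rbks, ribokinase, was lower on every slide at 6 h, at -0.36 ± 0.08 (adjusted p = 0.0754 in limma). Calls were not confined to pyruvate oxidation. By the same rule Bpgm of glycolysis was higher (0.33) and Pck2 of gluconeogenesis lower (-0.30) at 3 h. Slc16a8 of lactate transport was lower at 6 h (-0.48). Of the gluconeogenesis genes 0 of 4 were higher and 2 lower at 3 h, and 1 of 5 was higher and 2 lower at 6 h. With Losartan the counts over all the further genes tested were 1 higher and 2 lower at 3 h (4.94% and 6.1% of all genes) and 1 and 1 at 6 h (0.815% and 1.18%). With PD123319 they were 2 and 1 at 3 h (2.11% and 0.902%). At 6 h they were 0 in limma in both directions (3.88% and 2.49%), and 0 to 7 in all under other settings.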

How the data were processed

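Total RNA of 32 samples was hybridised, 1 sample an array, to Agilent 4x44K rat arrays. Per the file headers, the authors used Feature Extraction 9.5.3.1 (also in the submitters' processing notes), build rn4, with a different extraction protocol at 3 h and 6 h, and deposited background-subtracted spot intensity. The deposited log2 values of the series table match the log2 of this intensity within 0.01 for 99.4% of values of probes with 1 spot, with no scaling between arrays (array medians 6.39 to 8.14). Spots flagged as outliers were dropped. At 3 h dim spots have no surrogate value and the error of the signal was used instead. Probes with more than 2 gaps in 16 arrays were dropped, and a probe was kept when well above background on all 4 arrays of a group. Values were normalised by cyclic loess (span 0.7, 3 iterations), and the probes of a gene were averaged after centring, so that a gap in 1 probe does not move the gene. That step was chosen after seeing the data. limma 3.58.1 in R 4.3.3 was fitted to the 16 arrays of a time with the slide as a block. Genes are called past the limit at an unadjusted p under 0.05, the limit of the study's paired t-tests, which were run as an alternative and call other genes in part. Benjamini-Hochberg values over all genes are given beside it.

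Members and lists were chosen with earlier results of these data known. By rule, up to 8 members per comparison were given by array, those of lowest p that moved one way in all 4 pairs and were well above background on all 8 arrays, with Gapdh, Ppp1r3c and Txnip in any case. Other called members were named after their values were seen. The pairing comes from the slide numbers in the file headers and the paired tests in the series design. Arrays of 1 slide deviated together, with correlations from 0.15 at 3 h and 0.55 at 6 h upward (medians 0.68 and 0.69). Array number, not read depth, limits precision. The fit was checked on simulated data. Alternatives were other backgrounds, scalings, filters and tests, the deposited log2 values, Gapdh as reference, and each replicate left out.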

Additional observations from a re-analysis of the deposited data

Results flagged for a closer look

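Among the 4 replicates of a group, Txnip on replicate 1 lay far from the other 3 in 7 of its 8 groups. At 3 h its level there was 5.71 in Control, 6.11 in Ang II, 6.29 in Ang II+Los and 6.24 in Ang II+PD123319, with the other 3 arrays of each group at 1.13 or lower. At 6 h it was 5.03 in Ang II, 4.73 in Ang II+Los and 4.26 in Ang II+PD123319, with the 12 other arrays of that time at 1.88 or lower. For values that vary freely chance alone flags about 1 group in 20, and of 73 groups of the other named genes 0 were flagged. That rate cannot be applied to Txnip. Its 3 other arrays in each group were not well above background, and the groups of a time share slides, so they are not separate trials. The 4 arrays of replicate 1 at a time share a slide, and whether the slide or the cells gave the signal was not tested.

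Tested as an interaction between treatment and time, Ang II x Control had an unadjusted p under 0.05 for 4 genes, with a 6 h minus 3 h difference of 0.39 for Gpi, 0.68 for Pfkl, -0.42 for Taldo1 and -1.23 for Ppp1r3c. None passed adjustment in limma, and the times also differ in slides and extraction protocol.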

How the results depend on the processing

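The fits have the slide as a replicate block, since arrays of 1 slide are paired. Without the replicate block the numbers of glucose-use genes past the limit in Ang II x Control were 1 at 3 h (4 with it) and 3 at 6 h (8 with it), with Losartan 0 at 3 h (4 with it), with PD123319 1 at 6 h (2 with it), and for the time difference 0 (4 with it). In Ang II x Control at 3 h the count was 2 by the methods' paired t-test, with 0 of the 4 genes shared, 0 by an unpaired t-test, 2 with 75th percentile scaling, 2 from only the 8 arrays compared, 1 from the deposited log2 values, which cover fewer genes, and 2 relative to Gapdh. The 6 h count was 5 by the methods' paired t-test, all 5 shared, 1 unpaired and 5 with a limit on fold added. With Losartan at 3 h it was 1 by the paired and 1 by the unpaired t-test, 2 after quantile normalization, 0 from the 8 arrays and 2 from the deposited values. At 6 h, where none passed, it was 2 by the paired t-test and 1 from the 8 arrays. With PD123319 at 3 h, where none passed, it was 1 unpaired, 1 with the normexp background, 1 with no filter and 2 from the 8 arrays. The 6 h count was 0 unpaired, 1 with 75th percentile scaling, 1 with the strict filter, 4 from the 8 arrays, 1 from the deposited values and 1 relative to Gapdh. The cause of these changes was not tested.

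Leaving out each replicate in turn gave counts of 2 to 6 at 3 h and 3 to 12 at 6 h for Ang II against Control, 1 to 5 and 0 to 1 with Losartan, 0 to 2 and 0 to 3 with PD123319, and 0 to 6 for the time difference. The replicate left out decided these: 12 at 6 h came without replicate 3 and 3 without replicate 2. The medians then ranged from 0.09 to 0.16 and 0.03 to 0.11, from -0.14 to -0.02 and -0.08 to -0.03, and from -0.07 to -0.01 and -0.05 to -0.01, in the same order. The median with Losartan at 3 h became 0.035 with 75th percentile scaling and 0.15 relative to Gapdh. On that scale the 6 h median was -0.083 for Ang II x Control and 0.0016 with PD123319 at 6 h.

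Some values changed sign. Gapdh in Ang II x Control at 3 h was -0.025 with 75th percentile scaling, and with Losartan at 6 h it was 0.019 with that scaling and 0.049 with normexp. Ppp1r3c with PD123319 at 3 h, at -0.0021, was 0.013 with 75th percentile scaling, 0.0080 after quantile normalization and 0.0013 with normexp, and it ranged from -0.13 to 0.13 on leaving out a replicate. At 6 h, in the comparison with Control, Ppp1r3c was -0.12 relative to Gapdh and from -0.018 to 0.16 on leaving out a replicate, and Slc16a3 was 0.0096 with normexp. Of 243 values for the 18 called results under other settings, 163 kept direction and call, 79 lost the call and 1 changed sign. On leaving out a replicate 39 of 72 kept the call and 33 lost it.

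Scaling also moved the split of all genes past the limit. In Ang II x Control at 3 h it was 724 higher and 1007 lower, against 376 and 1341 with 75th percentile scaling, 577 and 1302 after quantile normalization and 179 and 1134 relative to Gapdh. The 6 h split was 1750 and 1785, against 1380 and 2144 with 75th percentile scaling and 254 and 4317 relative to Gapdh. With Losartan at 3 h it was 673 and 831, against 2582 and 134 relative to Gapdh, and at 6 h 134 and 194, against 162 and 142 with 75th percentile scaling and 94 and 76 relative to Gapdh. With PD123319 at 3 h it was 287 and 123, against 432 and 36 with 75th percentile scaling, 333 and 80 after quantile normalization and 33 and 118 relative to Gapdh. At 6 h it was 638 and 409, against 1063 and 200 with 75th percentile scaling. Signal over background limits Txnip, Pygl, Pfkfb2 and Slc16a3.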
